A study of Drosophila melanogaster with 7 samples.

Results

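The baseline transcriptome of the adult Drosophila melanogaster brain is described here from the 5 control libraries of a 3' RNA-seq series of 7 libraries, the other 2 being knockdowns that were not used. All 5 controls had the genotype Actin-GAL4 UAS-sh8MM, in which the ubiquitous Actin driver expresses a short hairpin with 8 mismatches, so these control brains also carried a driver and a hairpin and were not wild type. The series compared such brains with brains in which circMbl, a circular RNA of the muscleblind gene, was knocked down. The titles name day 3, and the sex of the flies and the number of brains in each library are not stated by the labels. Every gene with an intact line in the deposited table was ranked by its mean over the 5 controls, and 33 lists of transmitter, peptide, glial, metabolic and other tissue genes were compared by level.

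The fly brain is built of neurons that signal mainly with acetylcholine, GABA and glutamate, of smaller groups that release monoamines or peptides, and of glia that recycle transmitter, wrap neurons and form the blood-brain barrier. Neurons spend much energy on restoring ion gradients, which their mitochondria supply by respiration. A dissected brain can also carry cells that lie against it, such as photoreceptors of the eye, fat body, blood cells, muscle and antennal tissue. In a bulk library, fewer cells of a type and less RNA per cell cannot be told apart.

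Levels are normalized counts, that is, read counts divided by 1 factor per library. Libraries were made by CEL-seq2, which counts transcripts by their 3' ends. A value was therefore not divided by transcript length, and the order per kb of longest annotated transcript is given where it differs much. Values after ± are the SD over the 5 controls. Recovered totals were 5546121, 3918134, 4224478, 3732675 and 5177575 reads for control replicates 1 to 5, and between 9537 and 9891 gene lines were above 0 in a library. Control replicates 1, 4 and 5 carry lane code L7 in their titles and control replicates 2 and 3 carry L5. Control replicates 2 and 4 share title number 3, and control replicates 3 and 5 share title number 2. If a shared number means shared RNA, which the labels do not say, the 5 libraries stand for 3 samples. Libraries of a lane code were closer to each other (Spearman rho 0.981 to 0.986 across 7244 genes, which are not independent replicates) than libraries of different codes (0.956 to 0.971).

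Of 14476 intact gene lines, 11441 were above 0 in at least 1 control and 8520 in all 5. A mean of at least 10 normalized counts was reached by 7244 lines (50%), at least 100 by 3920, and at least 1000 by 787 (5.44%). The median level was 10.1 over all lines. The highest 10 genes held 12.5% ± 0.827 of all normalized counts and the highest 100 held 34.4% ± 1.70. The highest 1000 held 75.0% ± 1.34. The coefficient of variation (CV, SD over mean) had a median of 13.8% among genes of mean at least 1000, where counting error alone gives 2.14%. It was 7.44% between the 2 libraries of L5 and 5.25% among the 3 libraries of L7.

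**Figure D1:**
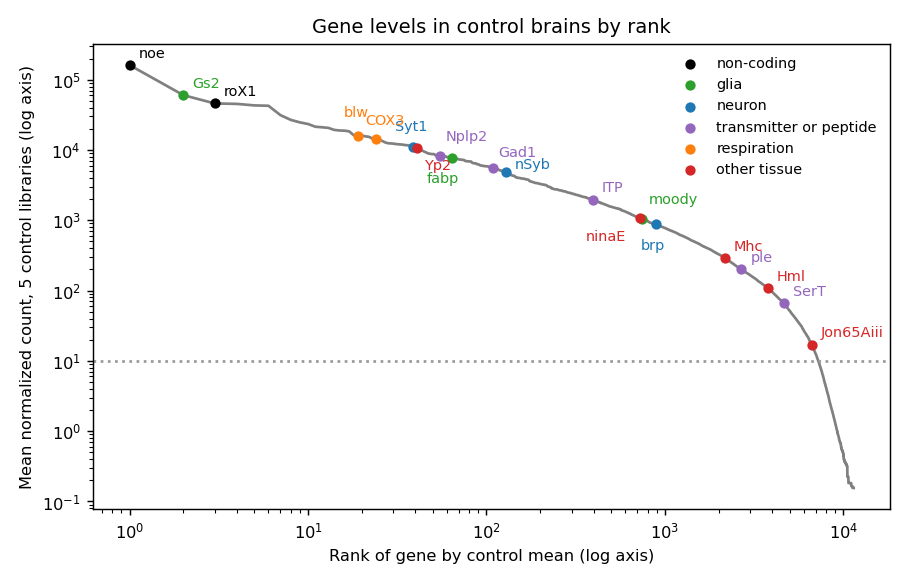
Mean normalized count in the 5 controls (log axis) against rank (log axis) for each gene line above 0, with genes of several kinds marked by colour. The line falls from 161175 for noe to below 1, and the dotted line marks a mean of 10.

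Among the intact lines, the most abundant RNA was noncoding. The RNA of noe (3L:17400272-17401348, minus strand, BDGP6) held 182275, 111512, 141398, 161025 and 209665 normalized counts in control replicates 1 to 5. It was the first gene in all 5 libraries, and its lowest library lay above the highest of any other gene. Alone it made up 3.96% ± 0.671 of the counts.

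The next gene was Gs2 (X:11422832-11430197), glutamine synthetase, the enzyme with which glia turn glutamate into glutamine. Gs2 held 65719, 52876, 55307, 61636 and 65812 normalized counts. Its range overlapped that of the following gene, although it was higher in every library. That gene was roX1, a noncoding RNA of the male dosage compensation complex, with 60994, 31094, 43278, 47361 and 46974. A further noncoding RNA, MRE16, held 45251 ± 6819. The 3 noncoding RNAs of the highest 25 genes together held 6.22% ± 0.694 of the counts, while all 2510 noncoding lines held 7.27% ± 0.629 and 175 of them reached a mean of 10.

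Among protein-coding genes below Gs2, calmodulin (Cam), the calcium sensor, held 44579, 37334, 41556, 44028 and 47906. IA-2, a dense-core vesicle protein of neurosecretory cells, held 42587 ± 2785. The neighbouring ranks roX1, MRE16, Cam and IA-2 each changed place in at least 1 library. Of the 24 neighbour pairs among the highest 25 genes, 3 were in the same order in all 5 libraries and only noe and Gs2 had ranges apart.

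The other coding genes of the highest 25 fell into a few kinds. Synaptic and membrane genes were Sap47, a synapse-associated protein (26820 ± 5185), Ih, a hyperpolarization-activated channel (18944 ± 2860), Sh, the Shaker potassium channel (18405 ± 3155), nrv3, a subunit of the neuronal sodium pump (16011 ± 1117), and unc-104, the kinesin that carries synaptic vesicle precursors (14460 ± 4550). RNA-binding proteins and regulators were pros, a homeodomain factor (19320 ± 2378), ps, or pasilla, a splicing factor (18831 ± 4705), bun, a TSC22 family member (16295 ± 5611), mei-P26, a TRIM-NHL protein (15632 ± 2128), and Rbp6 (15357 ± 1183). Mitochondrial genes were blw, the alpha subunit of ATP synthase (16064 ± 1267), sesB, the ADP/ATP carrier (14069 ± 1229), and COX3, a cytochrome oxidase subunit of the mitochondrial genome. Broadly used genes were 14-3-3zeta, Oda, or ornithine decarboxylase antizyme (24704 ± 2854), the histone gene His3.3B (23422 ± 2858) and Act5C, a cytoplasmic actin (21405 ± 3309). The lines of sif (21045 ± 3791), a Rac exchange factor, and CG46320 (20631 ± 3766) overlap on the same strand, so 1 set of reads may be counted in both. The line of sesB also overlaps Ant2 on the same strand, but this pair was not among the 42 with values within 5% in all libraries. Lines of roX1, Cam, Oda and unc-104 have a same-strand overlap with other annotated features too.

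Ranks per kb differed most for genes with long transcripts. Per kb, noe stayed at rank 1 and MRE16 was at rank 2, Gs2 at rank 5 and COX3 at rank 6. Per kb, pros was at rank 398 and mei-P26 at rank 482.

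Neuronal markers were high in every library. All 25 measured members of a list of 26 neuronal and synaptic genes had a mean of at least 10 and 22 had at least 1000, with a median level of 6011, against 10.1 over all lines. Together they made up 4.09% ± 0.129 of the counts, with 3.89% the lowest library and 4.20% the highest. Behind nrv3 and unc-104, the highest were fne, an RNA-binding protein of neurons (12419 ± 1068), para, the voltage-gated sodium channel (12072 ± 1101), and cpx, complexin, a clamp of vesicle fusion (11976 ± 385). Syt1, the calcium sensor of transmitter release, held 10900 and nSyb, the vesicle SNARE, 4844 ± 632. The pan-neuronal marker elav held 1573 ± 155.6 and brp, the active zone scaffold, 871 ± 58.8. Syt1 was 5.25 ± 0.27 log2 units above Mhc, the muscle myosin heavy chain, within libraries. The sign was the same in 5 of 5 libraries, and the two-sided exact sign-flip test gave p = 0.0625, the smallest that 5 libraries allow.

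**Figure D2:**
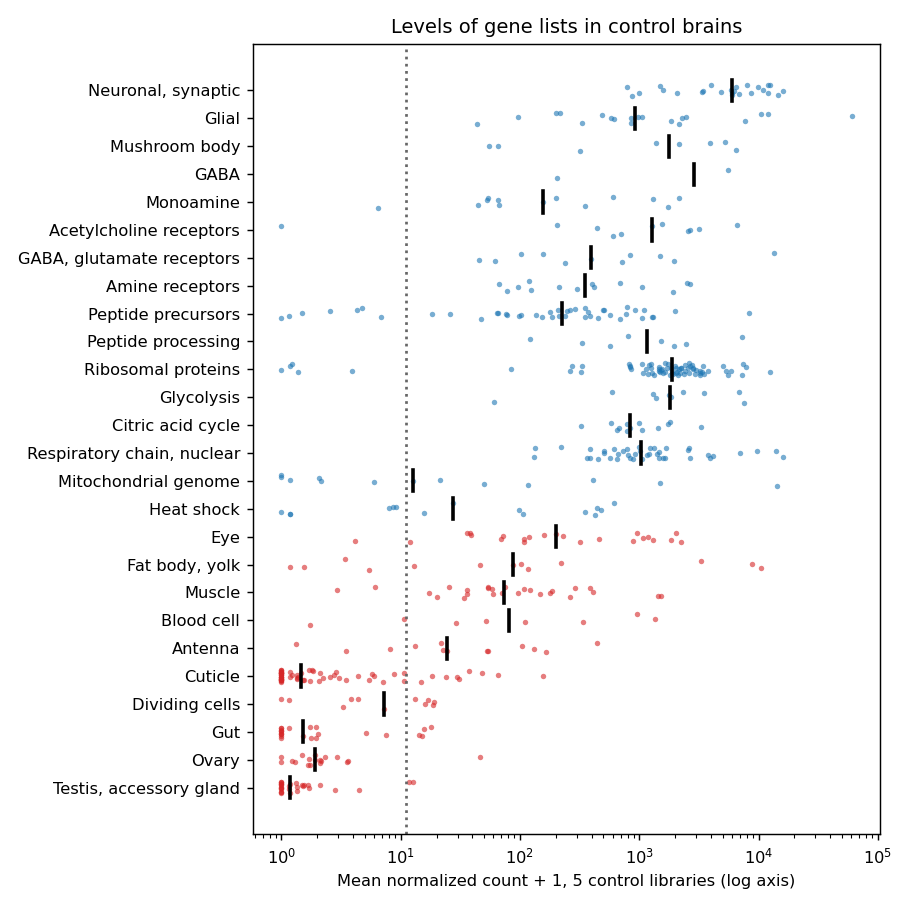
Mean normalized count plus 1 over the 5 controls (log axis) of each measured gene in 26 lists, with brain and housekeeping lists in blue, other tissues, dividing cells and cuticle in red, a black bar for each list's median and a dotted line at the median of all lines. The neuronal list has the highest median, 6011, and the testis list is near 0.

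Among transmitter genes, those of GABA could be read. Gad1, which makes GABA from glutamate, held 7689, 3057, 4029, 6425 and 6513 normalized counts. Both L5 libraries were below all 3 L7 libraries. VGAT, which loads GABA into vesicles, held 196, 233, 205, 179 and 197, with both L5 libraries slightly above the 3 L7 libraries. Gad1 was 4.70 ± 0.68 log2 units above VGAT, and it was higher in 5 of 5 libraries (exact sign-flip test, p = 0.0625), also per kb (4.46). Of the acetylcholine genes only Ace, acetylcholinesterase, had an intact line, with 2406, 2338, 2501, 2561 and 2502, the narrowest spread of the transmitter genes relative to its mean. ChAT, VAChT and ChT, and both vesicular glutamate transporter genes VGlut and VGlut1, are on damaged lines and were not analysed here, so the levels of cholinergic and glutamatergic genes cannot be set against those of GABA.

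Monoamine genes ranged widely. Of 13 measured members 12 reached a mean of 10 and 3 reached 1000. Ddc, the decarboxylase of dopamine and serotonin synthesis, held 1990, 2229, 2258, 2080 and 2144. Vmat, which loads amines into vesicles, held 1746 ± 300. Tbh, which makes octopamine from tyramine, held 1852, 595, 854, 1660 and 1496. Both L5 libraries were below the 3 others for Tbh, while those of Ddc were slightly above them.

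The other genes of the list were lower. DAT, the dopamine transporter, held 600 ± 134 and ple, tyrosine hydroxylase, 254, 109, 148, 234 and 257. Hn, phenylalanine hydroxylase, held 353 ± 52.2. SerT, the serotonin transporter, held 60.7, 97.9, 99.2, 30.2 and 42.8, with both L5 libraries above the others. Hdc, which makes histamine, held 53.0 ± 10.4 and Tdc2, the neuronal tyrosine decarboxylase, 52.1 ± 8.18. Pu, GTP cyclohydrolase, held 43.4 ± 5.43, prt, portabella, a vesicular transporter-like gene, 64.3 ± 20.2 and Tdc1, the other tyrosine decarboxylase, 5.49 ± 5.01. A line named Trh held 154 ± 42.6, but the gene table gives that symbol to more than 1 gene. It is counted in this list by its name alone.

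Within libraries, Gad1 was 4.78 ± 0.09 log2 units above ple, with 4.66 the lowest and 4.92 the highest. Ddc was 3.49 ± 0.61 log2 units above ple. Per kb these were 4.97 and 3.86. Both were higher in 5 of 5 libraries, each with an exact sign-flip p of 0.0625. All 10 gene pairs compared in this text gave that p, and it was also 0.0625 after adjustment over the pairs. For pairs added with earlier results of these data known, the p does not support the direction. Of the 12 neighbour pairs of the amine genes, Trh included, 7 kept their order in every library and 4 had ranges apart.

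Receptors for acetylcholine had a median of 1285 normalized counts. Of 11 measured, 10 reached a mean of 10 and 6 reached 1000. The subunit nAChRalpha6 held 6836, 6351, 6734, 6501 and 6741. It stood above nAChRbeta1, at 3145 ± 237, with no overlap of ranges. Next came nAChRalpha5 at 2660 ± 660 and nAChRalpha7 at 2579 ± 134, which overlapped each other, and nAChRalpha5 also overlapped nAChRbeta1. The muscarinic gene mAChR-C was at 0 in all 5, where a count of 0 allows up to 3.36 normalized counts in the shallowest library.

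Rdl, the GABA-gated chloride channel, was the highest receptor gene of the lists, with 13624, 11988, 14506, 13101 and 14171 normalized counts. The metabotropic GABA-B-R2 held 1955 ± 164 and Lcch3, another GABA-gated subunit, 1490 ± 288. Rdl was 1.36 ± 0.52 log2 units above Gad1 and higher in 5 of 5 libraries (exact sign-flip test, p = 0.0625). Per kb of longest transcript the ratio was -0.07, so the direction depends on whether length is divided out. Of 14 measured amine receptors all reached a mean of 10, and the highest were Octbeta2R, an octopamine receptor (2638 ± 468), and Dop1R1 (2505 ± 415) and DopEcR (1909 ± 240), both dopamine receptors.

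Neuropeptide precursors spanned a wide range. Of 44 measured members 37 reached a mean of 10 and 6 reached 1000, and RYa was at 0 in all 5. Their median was 223 and their share 0.606% ± 0.0931 of the counts. Nplp2 was highest, with 6170, 9556, 7744, 9989 and 7771. It was above ITP, the ion transport peptide (1974 ± 259), by 2.05 ± 0.37 log2 units and higher in 5 of 5 libraries (exact sign-flip test, p = 0.0625), and per kb by 4.64. ITP was the next precursor by the same means, so the choice of this pair set its direction. ITP in turn lay above AstC, allatostatin C, which held 1295 ± 114, with ranges apart.

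Below AstC the order was not firm. Nplp3 held 583, 1976, 981, 1898 and 996, with the title 3 pair highest, and spab held 1087 ± 339. Of 43 neighbour pairs in the list, 8 were in the same order in all 5 libraries and 3 had ranges apart. Of the genes that process peptides, 7B2, the partner of the prohormone convertase, held 7217 ± 476. Pal2, of peptide amidation, held 2479 ± 63.1 and amon, the convertase itself, 1526 ± 68.5. Of 8 measured processing genes, all reached a mean of 10.

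Glial genes were led by Gs2 and by small carriers. All 20 measured members of a list of 23 reached a mean of 10 and 9 reached 1000, with a median of 919 and a share of 2.61% ± 0.116. Pan-glial and astrocyte genes, Gs2 among them, held 1.60% ± 0.0380. In control replicate 1, Gs2 held 65719 of the 70387 normalized counts of this group and of the 117075 of the whole list. Both shares therefore mostly restate Gs2. Genes of ensheathing, cortex and barrier glia held 0.619%, 0.404%, 0.410%, 0.580% and 0.571%, with the L5 libraries lowest. Gs2 was 0.48 ± 0.05 log2 units above Cam and higher in 5 of 5 libraries (exact sign-flip test, p = 0.0625), and by 2.00 per kb. Cam was the next coding gene by the same means, so the choice of this pair set its direction. Obp44a, a small secreted carrier, held 11551, 13972, 11665, 11614 and 10739. The lipid carrier fabp held 8338, 6459, 5931, 9526 and 8064, and bnb, a glial protein, held 14056, 5963, 6864, 12792 and 12759. The L5 libraries were lowest for bnb and fabp but not for Obp44a.

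Markers of glial types were measured at lower levels. The astrocyte gene alrm held 853 ± 114. The barrier receptor moody held 1351, 820, 680, 1222 and 1155, and wrapper, of cortex glia, held 330 ± 90.1. The defining glial factor repo and the glutamate transporter Eaat1 are on damaged lines and were not analysed here. nSyb was 2.25 ± 0.23 log2 units above moody, and fabp was 0.65 ± 0.12 above nSyb, each in 5 of 5 libraries (exact sign-flip test, p = 0.0625). Per kb these were 2.30 and 1.77.

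Genes used as markers of the mushroom body, the centre of olfactory learning, were all well above the median line. All 8 measured reached a mean of 10, led by mamo (6496 ± 680), dnc, the cAMP phosphodiesterase (5237 ± 722), and Pka-C1, the catalytic subunit of protein kinase A (3937 ± 186). These genes are used by other neurons too.

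Genes of energy metabolism were abundant. Of 42 measured nuclear genes of the respiratory chain, all reached a mean of 10 and 22 reached 1000, with a share of 2.35% ± 0.270. All 10 measured glycolytic genes, a line named Ald counted by its name alone, reached 10, with a median of 1809 and a share of 0.676% ± 0.0807. The highest with a known gene match was Eno, enolase (8740, 6814, 6578, 7943 and 7468), followed by Gapdh2 (3485 ± 469), Pfk, phosphofructokinase (2307 ± 492), and Hex-A, hexokinase (1848 ± 142). Citric acid cycle genes had a median of 838, and kdn, citrate synthase, led with 5051, 1148, 1348, 4417 and 4352. The L5 libraries of kdn were far below the other 3.

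Messenger RNAs of the mitochondrial genome were unequal among themselves. COX3 held 18356, 6159, 7194, 20483 and 19567, with the L5 libraries lowest, and COX1 held 1188, 1665, 1453, 1845 and 1304, with lane codes overlapping. COX3 was 3.10 ± 0.95 log2 units above COX1 and higher in 5 of 5 libraries (exact sign-flip test, p = 0.0625). ND1 held 406 ± 253, CYTB 116 ± 13.6 and ATP6 48.9 ± 7.13, and ND4L and ND6 were at 0 in all 5. ND2, COX2 and ATP8 were near 0 too, with means of 1.13, 1.06 and 0.183. Why some lines were at or near 0 was not tested. The 13 genes had a share of 0.399% ± 0.157, which was 0.230% in L5 alone. In control replicate 1, COX3 held 18356 of the 20318 normalized counts of the list, so the share mostly restates COX3. Per kb, COX3 was 4.23 log2 units above COX1.

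Of 75 measured ribosomal protein genes 70 reached a mean of 10 and 61 reached 1000, with a share of 4.35% ± 0.794. The highest was RpL29 (14945, 8862, 10767, 13463 and 14392), and RpS28a was at 0 in all 5. All 9 measured translation factors and all 13 measured actin, tubulin and reference genes reached 10. Ef1alpha48D, the translation elongation factor eEF1alpha1, held 12840 ± 1236.

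**Figure D3:**
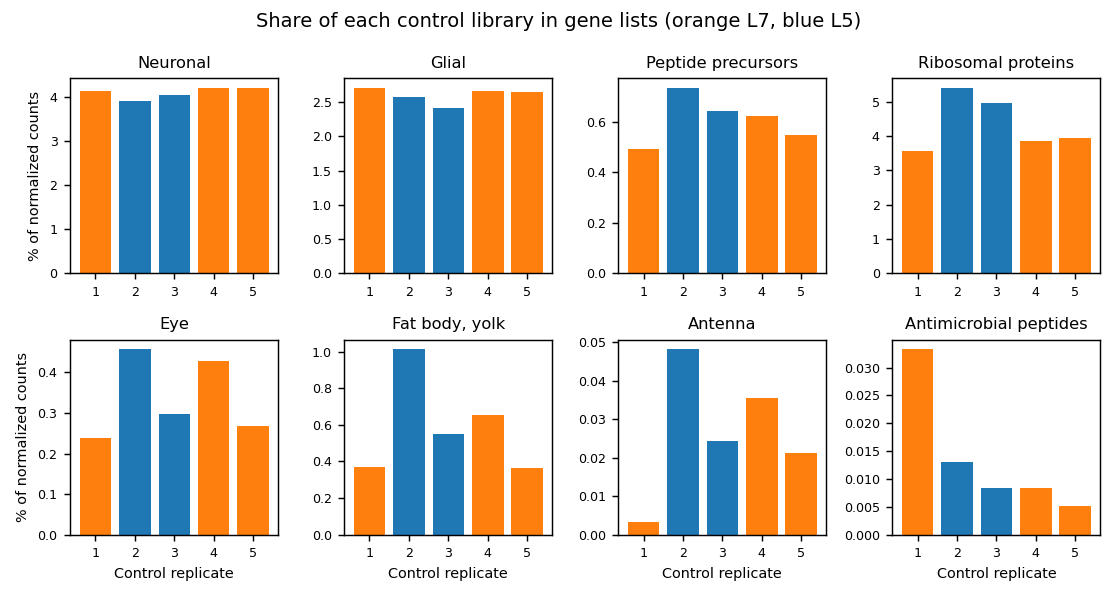
Percent of the normalized counts of each of the 5 control libraries in 8 gene lists, with a bar per library and colour by lane code. Neuronal and glial shares are level, the glial share being mostly Gs2, and the eye share is highest in control replicates 2 and 4. In control replicate 1 the antennal share is lowest and the antimicrobial share, there mostly Drs, is highest.

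Most genes listed for tissues next to the brain reached a mean of 10, unlike most of those listed for distant ones. Whether the counts came from those tissues was not tested. Yolk protein genes, made in fat body and ovary of females, were among the 200 highest lines: Yp2 held 7957, 15163, 8657, 13319 and 7442. Yp1 held 5277, 15708, 9045, 9267 and 5056. The title 3 pair was highest for both, for Yp1 with control replicate 4 only slightly above control replicate 3, and control replicates 1 and 5 were lowest for both. Of 13 measured fat body genes 9 reached a mean of 10, with a share of 0.590% ± 0.267. The 3 members of at least 1000 were Yp1, Yp2 and Yp3 (3285), and the next, bmm, held 220. Yolk, serum and lipid carrier genes held 0.581% of the counts and feeding and sugar responsive fat body genes 0.00915%. Another member, Fbp1, held 0.182. The part of fat body RNA in other results was not tested. RNA of roX1 and roX2 (827 ± 180), which males make, stood beside the yolk genes in every library.

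Eye genes were also readable. Of 23 measured, 22 reached a mean of 10 and 6 reached 1000, with a share of 0.338% ± 0.0988. The phospholipase norpA held 2239 ± 131 and rdgA, a diacylglycerol kinase, 1847 ± 146, both even across libraries. Whether these counts came from eye tissue was not tested. The arrestin Arr1 held 1273, 2563, 1521, 2976 and 1759, highest in the title 3 pair. The rhodopsin ninaE and the lens protein retinin differed more, as given below.

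Muscle and blood cell genes had list medians of 71.9 and 80.1, close to the 86.0 of the fat body list. Of 26 measured muscle genes 24 reached 10. Among them SERCA, the calcium pump (1510 ± 114.6), and Tm1, tropomyosin (1446 ± 343), are used in other cells as well. Mhc held 225, 321, 290, 260 and 351 and the flight muscle actin Act88F 35.2 ± 16.7. The blood cell genes PPO2, a prophenoloxidase, and Hml, hemolectin, held 1347 ± 166 and 109 ± 43.4, while NimC1 held 9.74 ± 3.60.

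Gut, gonad and cuticle genes were mostly below a mean of 10. Of 23 measured gut genes 4 reached a mean of 10 and 10 were at 0, and the highest, Jon65Aiii, a serine protease, held 17.0 ± 11.4. Of 30 testis and accessory gland genes 2 reached 10 and 13 were at 0. Of 18 ovary genes 1 did, Cp7Fa (45.1 ± 5.25), and vitelline membrane and chorion genes were otherwise below 3. Of 63 cuticle genes 9 reached 10 and 24 were at 0, with Cpr49Ae highest at 155.8 ± 78.5. Of 6 measured salivary and Malpighian tubule genes, Irk2, a potassium channel gene, held 1592 ± 252, and the glue genes Sgs3, Sgs4, Sgs5 and Sgs8 were at 0. Dividing-cell genes were low too: of 11 measured 5 reached 10, the highest, insc, a neuroblast polarity gene, held 18.02 ± 4.93, and the neuroblast gene ase was at 0.

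Antennal genes separated 1 library from the rest. Obp19d, an odorant-binding protein, held 59.9, 696, 419, 650 and 402. The carrier a10 held 3.11, 287, 142, 250 and 140 and Obp83a held 10.9, 251, 130, 163 and 94.7. Control replicate 1 was below all 4 others for each of these genes, and it is the library with title number 1. The summed list was 0.00317% of control replicate 1 and between 0.0211% and 0.0482% of the others.

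**Figure D4:**
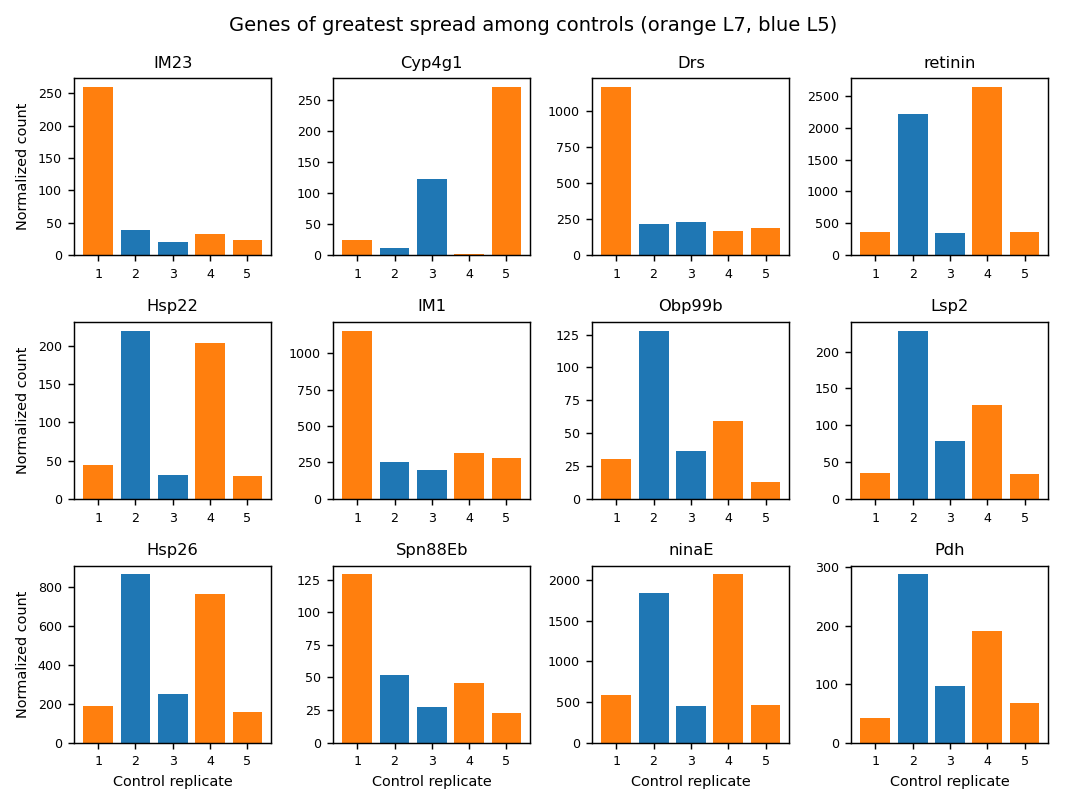
Normalized count in each of the 5 controls for the 12 genes with the highest spread beyond counting error among those with a mean of at least 50, with orange bars for lane code L7 and blue for L5. Some genes are high in control replicate 1 alone, and others in control replicates 2 and 4.

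Among the 12 genes of greatest spread beyond counting error, single libraries or title pairs stood out. They were chosen for that spread, so their values are a description. Of these 12 genes, 0 passed the limma test by lane code described below and 1 had an unadjusted p under 0.05, and limma voom also called 0. With title number as a replicate block, 1 was higher and 5 were lower in L7. Drosomycin (Drs), an antifungal peptide, held 1171 in control replicate 1 and 216, 229, 166 and 188 in the others. IM1 and IM23, immune-induced peptides, and the serpin Spn88Eb were likewise highest there. The summed antimicrobial list, of which Drs is the highest member, was 0.0333% of control replicate 1 and 0.00506% to 0.0130% of the others. In control replicate 1, Drs held 1171 of the 1437 normalized counts of the list, so that share mostly restates Drs.

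Another pattern was a high level in both title 3 libraries. The lens protein retinin held 359, 2224, 351, 2643 and 369, and ninaE 585, 1840, 445, 2072 and 459. The heat shock gene Hsp26 held 190, 863, 247, 763 and 156.4, and Hsp22 held 43.6, 220, 31.0, 204 and 29.6, a line with values identical to those of CG4456. Pdh, a photoreceptor dehydrogenase, Lsp2, a larval serum protein, and Obp99b, an odorant-binding protein, were also highest in this pair. In each of these 7 genes control replicates 2 and 4 lay above the other 3. Of 15 measured heat shock genes 9 reached a mean of 10, none reached 1000 and Hsp70Bbb was at 0. Cyp4g1, a cytochrome P450 of oenocytes, held 24.9, 11.0, 122, 1.12 and 270.8, highest in the title 2 pair.

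Lane code was the widest separation among the controls. With limma on log2(value + 1), 2140 of 7244 genes (29.5%) differed between L7 and L5 at an adjusted p under 0.05, 1279 of them higher in L7 (17.7%) and 861 lower (11.9%). The median of all tested genes was -0.02. Scaling by total recovered reads moved that median to -0.21 and the counts to 817 higher and 1739 lower. Without control replicate 2 the count was 1291. The directions below are relative to the deposited scaling. The labels do not say what the lane code stands for beyond its letters, and the 2 L5 libraries hold title numbers 3 and 2 only.

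Among genes of mean at least 50 that passed, genes known only by a CG or CR number left out, Mctp and garz were highest in L7. Mctp, a C2-domain membrane protein, held 319, 276 and 289 in L7 and 41.2 and 45.5 in L5 (log2 difference 2.74 ± 0.13 SE, limma adjusted p = 2.7e-06). The Arf exchange factor garz was higher by 2.40 ± 0.12 and the mitochondrial ND1, shown as a list member, by 2.17 ± 0.11. In all 3 the lane codes did not overlap. The lowest differences among them were those of Muc68D, a mucin-related gene (-1.78 ± 0.47), PPO1, a prophenoloxidase (-1.54 ± 0.33), and Uhg7, a snoRNA host gene (-1.40 ± 0.09).

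In the lists of ribosomal and respiratory genes most tested members were lower in L7, where 11.9% of all tested genes were lower and 17.7% higher. Of the 787 genes of mean at least 1000, 112 were lower and 299 higher. Of 70 tested ribosomal protein genes 3 were higher and 44 lower in L7, with a median of -0.43. Of 42 nuclear respiratory genes 2 were higher and 27 lower, with a median of -0.38. With the other scaling 57 of 70 and 35 of 42 were lower. The share of ribosomal protein genes was 3.56%, 3.85% and 3.96% in L7 and 5.41% and 4.96% in L5. Exceptions were ND-23, of complex I, which held 12553, 4651, 5903, 12144 and 13327, and RpL29, both higher in L7.

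The share of neuronal genes that passed, 32.0%, was near the 29.5% of all tested genes. It was below the 52.2% of all genes of mean at least 1000, a level that 22 of the 25 neuronal genes reached. Of 25 neuronal genes 8 were higher and 0 lower in L7, with a median of 0.21, but scaling by total recovered reads made this 5 higher and 6 lower, with a median of 0.01. Of 11 genes of ensheathing, cortex and barrier glia 8 were higher and 2 lower, with a median of 0.71, and of the 6 pan-glial and astrocyte genes 1 was higher and 1 lower. With the other scaling the barrier glia counts were 8 higher and 3 lower. In the highest 25 genes 13 were higher and 0 lower (11 and 6 with the other scaling), among them 14-3-3zeta (43884, 14892, 19627, 39648 and 38669, limma log2 difference 1.25, adjusted p = 0.000143). The share of the highest 25 that passed, 52%, was near that of all genes of mean at least 1000. Of 44 peptide precursors 37 were tested, with 6 higher and 6 lower (2 and 14 with the other scaling), a share of 32.4% and so also near that of all tested genes.

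**Figure D5:**
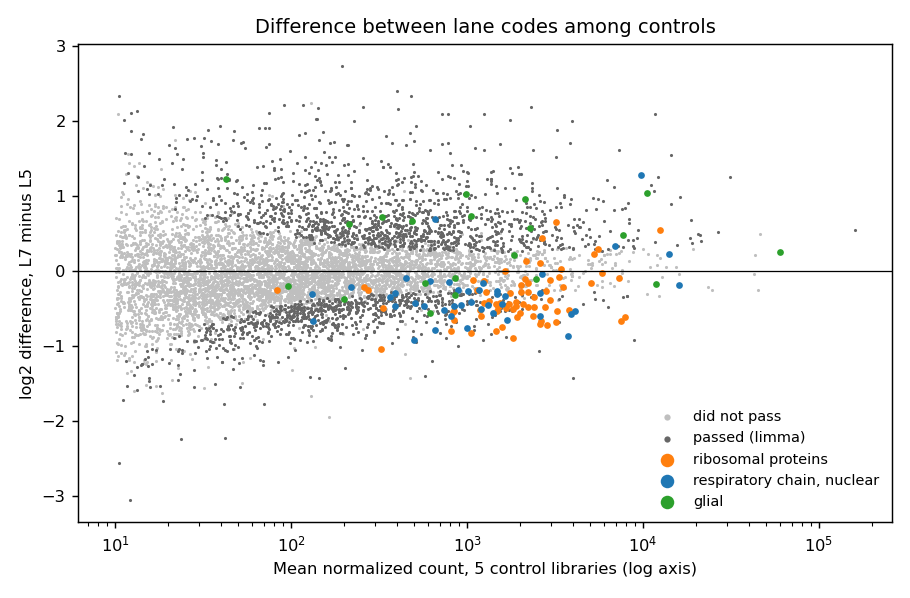
The log2 difference between lane codes, L7 minus L5, against mean normalized count (log axis) for 7244 genes, with genes past the limma test in dark grey and 3 lists in colour. Most ribosomal protein and respiratory genes lie below 0, with list medians of -0.43 and -0.38.

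Transcript length moved with this difference. The median log2 difference was -0.20 for genes with a longest transcript under 1 kb and -0.11 from 1 to 2 kb. It was 0.04 from 2 to 4 kb, 0.14 from 4 to 8 kb and 0.17 from 8 kb. Levels rose with length in the same bins, from a median of 67.8 to 660. The part of length in the list differences was not tested.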

How the data were processed

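Per the labels' protocols, RNA of dissected brains was extracted with Trizol, treated with DNase I and made into CEL-seq2 libraries adapted for bulk RNA. The submitters' processing notes name STAR and dm6; no source used here names the counting tool, the strand setting or whether molecular identifiers were used. The authors deposited a table of normalized counts, a signal whose making is not given. All values above 0 were whole multiples of 1 step per library (100% within 0.001 of a read), and the depths are totals of these steps, called reads here. In the table, 14476 intact lines were used. Not used were 402 columns that name no sample, 2139 lines with misplaced text and 1 line with a damaged name, so 80 of 675 listed genes had no usable line.

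Columns were assigned by title. Symbols were matched to the RefSeq gene table by current symbol (11222) or synonym (3147), and 107 were not matched. Positions and transcript lengths come from the Ensembl BDGP6 annotation, the assembly of dm6, and for mitochondrial genes from the RefSeq table. The 33 lists and the members were chosen with earlier results of these data known. Named genes were the 25 highest, up to 5 highest of each list, all members of the transmitter lists, members at 0, markers, genes of the compared pairs and the 12 genes of greatest spread beyond counting error with a mean of at least 50. The genes highest and lowest by lane code, and list members shown for a contrast with these (Fbp1, ND-23), were named after their values were seen. No sequence is printed.

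Levels are means over the 5 controls. Lane codes were compared in limma 3.58.1 (R 4.3.3, eBayes with its trend option) on log2(value + 1) for lines of mean at least 10, with Benjamini-Hochberg adjustment and a threshold of 0.05. The values are normalized, so a count-model test such as edgeR was not run, while limma voom on recovered reads was an alternative. Pairs of genes were compared within libraries by an exact sign-flip test. Of 9 planned pairs 7 lacked a usable line, and 8 others were added after that was seen. These 8 were chosen with earlier results of these data known, so their p-values do not support their direction. Nothing says that the libraries came from separate flies, so limma p-values measure only their spread, which may be technical. With the same sign in all 5 libraries, the exact sign-flip test gives p = 0.0625 whatever the spread. On simulated data of the lane comparison, with 200 of 7244 genes changed, 43.3% of genes changed 1.5-fold, 79.1% changed 2-fold and 98.5% changed 4-fold were recovered, with 8 false calls among 155. Libraries were simulated as independent and with the same dispersion for every gene, so these values do not give the false-call rate of the real comparison. A count of 0 allows up to 3 reads in a library, for counting error only. Of 221 same-strand overlapping pairs, 42 had values within 5% in all libraries.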

Additional observations from a re-analysis of the deposited data

Results flagged for a closer look

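Of 172 named genes tested, 9 had a library that stood apart from the other 4, where chance flags about 1 in 20. Control replicate 1 was high for Drs (1171 normalized counts, the others between 166 and 229), IM1 (1155), IM23 (259.8) and Spn88Eb (129), and low for Cpr65Au (17.1, the others between 51.0 and 62.7). Control replicate 2 was high for Obp44a (13972) and CycA (19.2), and low for mamo (5311) and nAChRalpha3 (1335). Drs, IM1, IM23 and Spn88Eb are among the 12 genes chosen for their spread, so the count cannot be set against the chance rate.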

How the results depend on the processing

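Of 244 recomputed values, 227 kept their direction and stayed within the replicate SD, for counts within 1.5 times, the changed minimum mean (9254 and 5054 genes against 7244) included. For ratios and shares, a mean without 1 control or over L7 alone cannot leave the SD of the same libraries. Those values were fixed in advance, so the 227 do not measure how firm the results are. The Rdl to Gad1 ratio turned to -0.0712 per kb. Per kb, Gad1 to ple was 4.97 and Syt1 to Mhc 5.56. The mitochondrial share was 0.230% in L5 alone. The count of genes that differ by lane code was between 1291 and 1792 without 1 control at a time, with the lowest without control replicate 2, and between 2028 and 2556 under other settings without a block. With title number as a replicate block it was 2605, in a fit with 1 residual degree of freedom, and of these 2082 were shared with the 2140. Title numbers share too few libraries to show a pairing: the log2 difference of titles 3 and 2 correlated between lane codes across 5054 genes with r = 0.40 and Spearman rho 0.16. Averaging same-titled controls gave 7229 genes of mean at least 10, against 7244. On recovered reads, limma was run by voom and after scaling by their total. Count-model tests such as edgeR and the scaling by trimmed means were not run, because the values are normalized and whole reads were recovered from the intact lines only. At a mean of 10, counting error alone gives a CV of 30.1%, so low lists such as gut and testis are limited by depth. Scaling by total recovered reads was chosen after seeing the data.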

Other observations

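Genes near each other in the genome can share reads in a 3' library. Acp53C14c, named for an accessory gland protein, held 127, 295, 338, 131 and 128 normalized counts, although 13 of 30 measured testis and accessory gland genes were at 0. It lies at 2R:16750776-16751495 on the minus strand, and the 3' end of unc-104, the kinesin gene, lies at 16751503 on the same strand. The L7 minus L5 difference was -1.29 for Acp53C14c and 0.89 for unc-104, of opposite sign. Whether reads of unc-104 are counted for Acp53C14c was not tested.

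In 46 lines, in 23 groups, values were identical in all 5 controls, and such duplicated lines held 0.202% to 0.232% of the counts.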
